A study of Mus musculus with 112 samples.

Results

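The nuclear-encoded subunits of oxidative phosphorylation were followed across epididymal fat, gastrocnemius muscle and liver of Pparγ Pro12Ala mice. Members were every probe set whose gene symbol started with Ndufa, Ndufb, Ndufc, Ndufs, Ndufv, Uqcr, Cox4, Cox5, Cox6, Cox7, Cox8 or Atp5, or was Sdha, Sdhb, Sdhc, Sdhd or Cyc1. Cox7a1 and Cox8b were left out. The rule took 98 probe sets of 80 genes, out of 32640 probe sets and 16643 named genes in the table. Complex I had 37 probe sets of 30 genes, complex II 6 of 4, complex III 12 of 9, complex IV 13 of 13 and complex V 19 of 14. The Ndufaf symbols that the rule also took are complex I assembly factors and not subunits, and they were kept apart as a class of 9 probe sets of 8 genes. Ndufa4l2 and Cox7a2l, related proteins outside the catalytic complexes, made up the other 2. The rule goes by gene symbol and uses no expression value, but it was chosen with earlier results of these data known. A further 15 genes that fit the rule by name had no probe set named for them and were not analysed here.

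Oxidative phosphorylation oxidises NADH at complex I and succinate at complex II, passes the electrons through complexes III and IV to oxygen, and uses the proton gradient built on the way to make ATP at complex V, the ATP synthase. The complexes sit in the inner mitochondrial membrane, and all but complex II mix nuclear-encoded subunits with subunits made inside the mitochondrion. White fat has few mitochondria compared with muscle and liver. PPARγ is the nuclear receptor that drives fat cell formation, and its Pro12Ala allele changes a residue near the start of the PPARγ2 form.

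All mice were males of a Pparγ Pro12Ala knock-in line, as Pro/Pro (wild-type) and Ala/Ala littermates, fed a high-fat diet (HFD) or kept on regular chow from 8 weeks of age. The deposited descriptions conflict on how long it was fed (15 weeks by the design text, 12 weeks by the descriptions of single arrays) and on which feed it was. Ala/Ala HFD, Ala/Ala chow, Pro/Pro HFD and Pro/Pro chow mice numbered 8, 9, 10 and 10 in fat, 9, 10, 8 and 8 in muscle, and 10 in each of the 4 groups in liver. The knock-in allele is present in every tissue, so a difference in muscle or liver does not show where the receptor acted. The arrays came from 41 mice, 31 of them measured in all 3 tissues.

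Each value is a mouse's signal divided by that of a virtual pool of the Pro/Pro HFD arrays of the same tissue, given here as log2, so that 0 equals the pool and 1 is a doubling. The arithmetic of the pool fixed the direction as mouse over pool. With only ratios there is no level of any gene, and neither the identity of the tissues from their defining markers nor which transcripts lay above background could be checked. Differences are HFD minus chow or Ala/Ala minus Pro/Pro. A member is said to have risen or fallen where limma's adjusted p, corrected over all 32640 probe sets, was under 0.05. The median standard deviation within a group was 0.12 for members in fat, against 0.17 for all probe sets, 0.07 against 0.15 in muscle, and 0.10 against 0.17 in liver. Several fat arrays held transcripts of other organs: the mean of 12 epididymis and testis probe sets reached -0.26 in Ala/Ala HFD and 0.52 in Pro/Pro HFD, against at most -1.20 and -1.16 in Ala/Ala and Pro/Pro chow fat, and the mean of 7 hepatocyte probe sets ran from -3.75 to 2.78 over all fat arrays. Fat results are therefore also given without the 14 arrays in which either mean stood more than 2 above the lowest array, 13 of them by the hepatocyte and 1 by the epididymis and testis mean. Among the arrays kept, the epididymis and testis mean still reached -0.26 in Ala/Ala HFD and -0.60 in Pro/Pro HFD fat. In such bulk RNA, fewer cells of a type and less RNA per cell cannot be told apart.

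The promoters of the genes give the sequence context of the members. NRF1, nuclear respiratory factor 1, is a transcription factor known for binding promoters of respiratory chain genes, and its core motif (GCGC, any base, then TGCGC) was searched on both strands in RefSeq windows (GRCm38.p6) from 250 bases before to 50 after the gene start. Of the 80 genes, 64 had a window there, in 68 windows, and 17 windows (25.0%) of 16 genes held the motif, against 1512 of all 32851 windows (4.6%). The YY1 motif AAGATGGC stood in 9 of the 68 windows (13.2%), against 903 of all (2.75%), and the estrogen-related receptor motif TCAAGGTCA in 2 (2.94%), against 139 of all (0.423%). Shown are the 250 bases before the start of 5 genes with a match that respond to diet in fat, 2 that rose and 3 that fell, with each NRF1 motif on either strand in capitals. Atp5c1 has 2 annotated starts, and the sequence belongs to 1 of them.
Ndufaf4 promoter, chr4:24897833-24898082, plus strand: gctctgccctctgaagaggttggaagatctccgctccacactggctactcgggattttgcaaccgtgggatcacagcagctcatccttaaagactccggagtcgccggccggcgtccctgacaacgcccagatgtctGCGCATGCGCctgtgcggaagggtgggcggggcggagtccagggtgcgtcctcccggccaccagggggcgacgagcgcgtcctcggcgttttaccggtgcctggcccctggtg
Ndufa11 promoter, chr17:56717512-56717761, plus strand: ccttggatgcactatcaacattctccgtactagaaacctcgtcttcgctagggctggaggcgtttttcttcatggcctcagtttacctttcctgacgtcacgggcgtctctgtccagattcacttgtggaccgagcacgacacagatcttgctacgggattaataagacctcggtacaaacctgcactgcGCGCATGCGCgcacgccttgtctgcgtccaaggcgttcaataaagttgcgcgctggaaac
Sdha promoter, chr13:74350241-74350490, minus strand: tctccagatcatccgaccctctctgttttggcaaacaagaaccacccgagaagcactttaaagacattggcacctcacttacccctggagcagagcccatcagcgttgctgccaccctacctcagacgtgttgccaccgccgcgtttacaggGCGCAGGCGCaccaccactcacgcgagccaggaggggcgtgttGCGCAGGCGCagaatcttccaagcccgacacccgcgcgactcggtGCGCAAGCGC
Atp5g2 promoter, chr15:102671048-102671297, minus strand: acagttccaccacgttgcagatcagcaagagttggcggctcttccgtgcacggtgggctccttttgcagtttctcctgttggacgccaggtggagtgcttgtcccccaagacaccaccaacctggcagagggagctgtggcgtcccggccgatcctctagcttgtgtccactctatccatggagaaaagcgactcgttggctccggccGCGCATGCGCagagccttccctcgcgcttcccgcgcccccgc
Atp5c1 promoter, chr2:10080433-10080682, minus strand: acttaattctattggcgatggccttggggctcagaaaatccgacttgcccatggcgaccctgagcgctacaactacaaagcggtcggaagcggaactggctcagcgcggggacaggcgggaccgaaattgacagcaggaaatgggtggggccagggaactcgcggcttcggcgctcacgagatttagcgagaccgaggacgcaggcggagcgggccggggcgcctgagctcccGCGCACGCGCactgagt

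In fat, HFD changed the members in both directions. Accessory subunits and assembly factors of complex I were higher on HFD, among them Ndufa10, Ndufa11 and Ndufaf6, while both catalytic subunits of complex II, Uqcrc2 and Cyc1 of complex III and the alpha, beta and gamma chains of the ATP synthase were lower. Of these falls, those of Sdhb, Uqcrc2, Cyc1 and the beta chain kept their direction but no longer passed without the 14 arrays. Over both genotypes 26 of the 98 probe sets rose and 15 fell, against 18.4% that rose and 20.3% that fell among all probe sets of the table. In members these counts are 26.5% and 15.3%. The median difference of the members was 0.01 on the log2 scale and 0.02 over the table. The share of members called, 41 of 98, lies near the 38.7% of the table, so the count as a whole did not set them apart; the direction by complex is the description that follows.

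**Figure D1:**
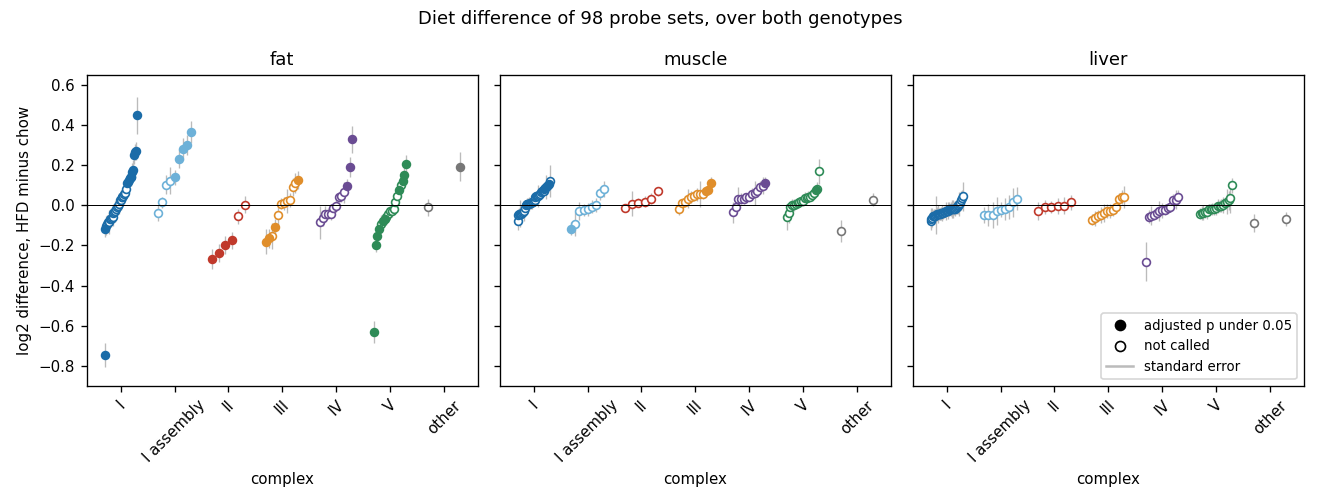
Log2 difference, HFD minus chow over both genotypes, of each of the 98 probe sets (points) by complex (x axis) in fat, muscle and liver, filled where called and open where not, with bars of 1 standard error. In fat the assembly factors lie mostly above 0 and complex II at or below 0; in muscle the points stay between -0.13 and 0.17, and none is called in liver.

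Complex I had the largest number of rises, 12 of 37 probe sets with 2 falls and a median of 0.03. These were 32.4% and 5.41%, against 18.4% and 20.3% of the table. Ndufa10, an accessory subunit of the membrane arm, ran from -0.36 through a median of -0.01 to 0.35 in Ala/Ala HFD fat and from -1.09 through -0.48 to -0.04 in Ala/Ala chow fat. In Pro/Pro mice it ran from -0.46 through -0.15 to 0.80 on HFD and from -0.93 through -0.41 to -0.15 on chow. The HFD medians were higher in both genotypes, with overlapping ranges, and the difference was 0.45 ± 0.09 (SE), a 1.37-fold level (adjusted p = 0.00014). The other Ndufa10 probe set differed by 0.03 (adjusted p = 0.699), so the rise is that of 1 of the 2 probe sets.

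Ndufa11, an accessory subunit of the membrane arm whose promoter is shown, ran from -0.26 through -0.07 to 0.06 in Ala/Ala HFD fat, against -0.57 through -0.30 to -0.18 in Ala/Ala chow fat. In Pro/Pro HFD fat it ran from -0.22 through -0.01 to 0.19, against -0.50 through -0.29 to -0.09 in Pro/Pro chow fat. Only the ends of the ranges overlapped, and the difference was 0.27 ± 0.05 (adjusted p = 8.3e-06). Ndufb6, Ndufb2 and Ndufb3, small subunits of the same arm, rose by 0.27, 0.25 and 0.17. Smaller rises of 0.12 to 0.14 were called for Ndufc1, Ndufs6, Ndufa8, 1 of 2 Ndufa7 probe sets and 1 of 2 probe sets of Ndufs8, an iron-sulfur subunit. The core subunits that take electrons from NADH did not pass: Ndufv1, the NADH-binding subunit, differed by -0.03 (adjusted p = 0.536), Ndufv2 by -0.07 (0.199) and Ndufs1 by -0.08 (0.291). Ndufa6, an accessory subunit of the matrix arm, fell by 0.12 (adjusted p = 0.0319), a call that 5 of the 37 single-mouse omissions ended.

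Ndufab1, the mitochondrial acyl carrier protein that also belongs to complex I, gave calls in both directions. At 1 of its 3 probe sets it ran from -0.35 through -0.15 to 0.08 in Ala/Ala HFD fat, against 0.42 through 0.60 to 0.79 in Ala/Ala chow fat. On HFD it ran in Pro/Pro fat from -0.47 through 0.01 to 0.40, against 0.50 through 0.67 to 0.91 in Pro/Pro chow fat. Every HFD mouse lay below every chow mouse of its genotype, as at 2.57% of the table in Ala/Ala and 1.46% in Pro/Pro fat, and the difference was -0.74 ± 0.06, a 0.597-fold level (adjusted p = 6.33e-12). The other 2 probe sets rose by 0.18 (adjusted p = 0.0048) and 0.11 (0.0395), so the gene as a whole has no single direction here; where the probes lie in the transcript was not analysed here.

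The assembly factors were the class in which most members rose: 5 of 9 probe sets, with no fall, and 8 of 9 above 0 with a median of 0.14. The rises were 55.6% of the class, against 18.4% of the table. Ndufaf6 ran from -0.26 through 0.05 to 0.22 in Ala/Ala HFD fat, against -0.58 through -0.40 to -0.13 in Ala/Ala chow fat. In Pro/Pro HFD fat it ran from -0.40 through -0.09 to 0.33, against -0.56 through -0.33 to -0.08 in Pro/Pro chow fat. The HFD medians were higher and the ranges overlapped, with a difference of 0.36 ± 0.06 (adjusted p = 2.16e-06). Ndufaf4 and Ndufaf3, which act together early in assembly, rose by 0.30 (adjusted p = 6.61e-06) and 0.14 (0.00264), although the other Ndufaf4 probe set, at 0.12, did not pass (0.154). Ndufaf2, which acts late on the NADH-binding module, rose by 0.28, and Ndufaf5, which in human cells hydroxylates the subunit NDUFS7, by 0.23. Ndufaf1, Ndufaf7 and Ndufaf8 differed by 0.10, -0.04 and 0.01 and did not pass.

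**Figure D2:**
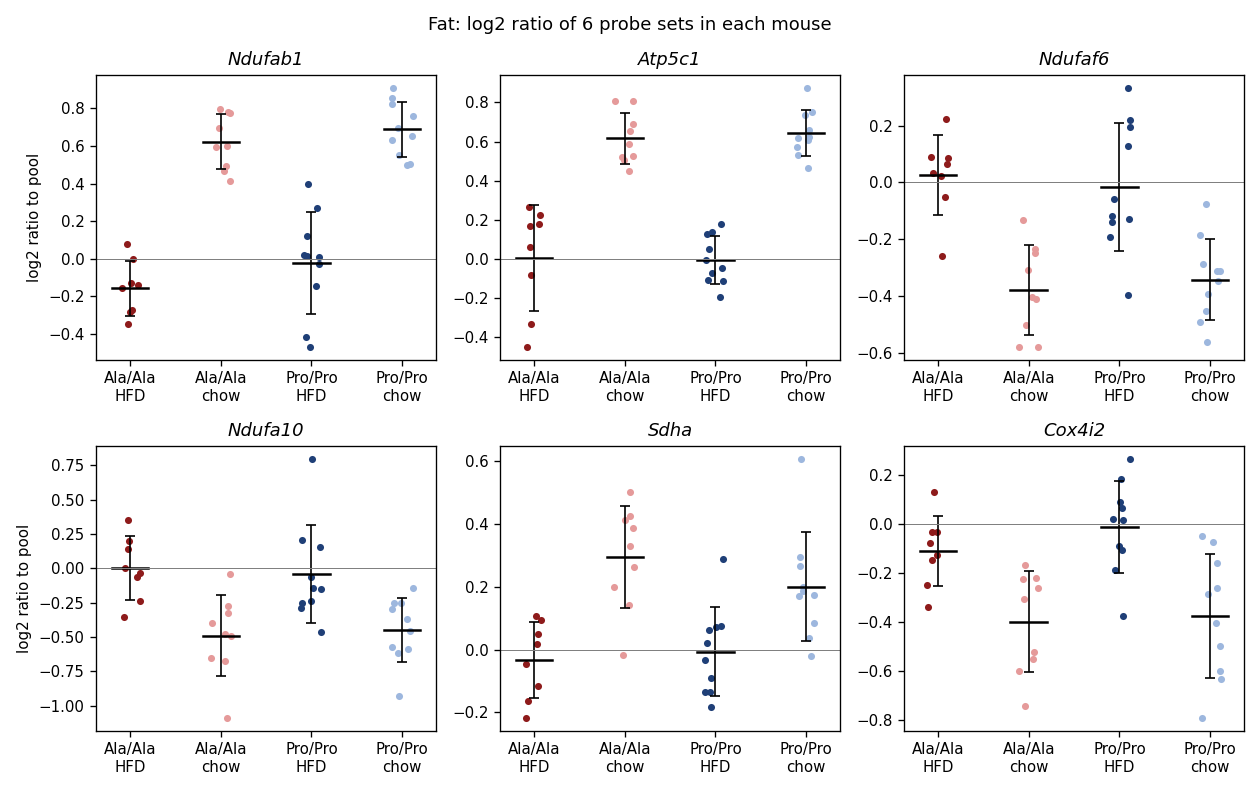
Log2 ratio to the pool (y axis) of 6 probe sets in each fat sample (points), by genotype and diet (x axis, HFD left of chow in each genotype), with the group mean and standard deviation. Atp5c1 and Ndufab1 have every HFD mouse below every chow mouse of the same genotype, while the ranges of Ndufa10, Ndufaf6, Cox4i2 and Sdha overlap.

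Complex II, succinate dehydrogenase, was the class in which most members fell, 4 of 6 probe sets with no rise and a median of -0.19. The falls were 66.7% of the class, against 20.3% of the table. All 3 probe sets of Sdha, the flavoprotein that oxidises succinate, fell, by 0.27, 0.24 and 0.20. In the first of them, values ran from -0.22 through -0.01 to 0.11 in Ala/Ala HFD fat, against -0.02 through 0.33 to 0.50 in Ala/Ala chow fat, and from -0.18 through -0.01 to 0.29 in Pro/Pro HFD fat, against -0.02 through 0.18 to 0.61 in Pro/Pro chow fat. The medians were lower on HFD in both genotypes and the ranges overlapped (adjusted p = 4.75e-05). Sdhb, the iron-sulfur subunit, fell by 0.18 ± 0.04 (adjusted p = 0.0014). The membrane anchors Sdhc and Sdhd differed by 0.00 and -0.06 and did not pass (adjusted p = 0.958 and 0.234).

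Of the 12 probe sets of complex III 1 rose and 3 fell, or 8.33% and 25%, against 18.4% and 20.3% of the table. Uqcrc2, a core protein, fell by 0.17 ± 0.05 at 1 probe set (adjusted p = 0.00452) and stood at -0.15 (0.0545) at the other. Cyc1, cytochrome c1, fell by 0.11 ± 0.04 (adjusted p = 0.0234). Uqcr10, a small subunit, fell by 0.18 at 1 probe set (adjusted p = 0.0205) and stood at 0.09 (0.107) at the other, and Uqcr11 rose by 0.13 (0.0273), a call that the omission of Mouse113 ended. Uqcrc1 and Uqcrfs1, the Rieske iron-sulfur protein, differed by 0.02 and -0.05 and did not pass.

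The ubiquitous subunits of complex IV, cytochrome c oxidase, gave no call, and its 3 rises among 13 probe sets were all of isoforms known for restricted tissues. These rises were 23.1% of the class, against 18.4% of the table. Not all such isoforms rose: Cox6b2, a testis isoform, and Cox7b2 were not called, and the lowest of the 13 probe sets stood at -0.09. Cox4i2, an isoform known from lung and induced by hypoxia, ran from -0.34 through -0.10 to 0.13 in Ala/Ala HFD fat, against -0.74 through -0.30 to -0.17 in Ala/Ala chow fat. On HFD it ran in Pro/Pro fat from -0.38 through 0.02 to 0.27, against -0.79 through -0.34 to -0.05 in Pro/Pro chow fat. The ranges overlapped and the difference was 0.33 ± 0.07 (adjusted p = 0.000119). Cox6a2, the heart and skeletal muscle isoform, rose by 0.19 (adjusted p = 0.00218), beside skeletal muscle markers of which 2 of 8 probe sets rose and 1 fell, and without the 14 arrays it stood at 0.14 and did not pass. Cox8c, a testis isoform, rose by 0.09 (adjusted p = 0.0437), beside epididymis and testis markers of which 5 of 12 probe sets rose; 19 of 37 single omissions ended the Cox8c call, and without the 14 arrays it stood at 0.05 and did not pass. Cox4i1, the common counterpart of Cox4i2, stood at -0.04 (0.259), Cox6a1 at -0.01 and Cox8a at -0.01. Ndufa4, now placed in complex IV, differed by -0.04 (adjusted p = 0.402), while Ndufa4l2, its hypoxia-induced relative, rose by 0.19 ± 0.07 (0.0334), a call lost without the 14 arrays, where it stood at 0.095.

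Of the 19 probe sets of the ATP synthase 4 rose and 6 fell. These were 21.1% and 31.6%, against 18.4% and 20.3% of the table, so the share of rises lay near that of the table. Atp5c1, the gamma chain that turns inside the catalytic head, ran at 1 of 2 probe sets from -0.45 through 0.12 to 0.27 in Ala/Ala HFD fat, against 0.45 through 0.59 to 0.81 in Ala/Ala chow fat. In Pro/Pro HFD fat it ran from -0.20 through -0.03 to 0.18, against 0.47 through 0.62 to 0.88 in Pro/Pro chow fat. No HFD mouse reached a chow mouse of its genotype, and the difference was -0.63 ± 0.05, a 0.646-fold level (adjusted p = 2.14e-11). The second Atp5c1 probe set fell by 0.20 ± 0.03 (adjusted p = 2.12e-05), a smaller difference in the same direction. Atp5a1, the alpha chain, fell by 0.15 at 1 probe set (adjusted p = 9.5e-05) and stood at -0.04 (0.173) at the other, and both probe sets of Atp5b, the catalytic beta chain, fell by 0.08 and 0.07 (adjusted p = 0.0268 and 0.0498). The smaller of these Atp5b calls was lost in 25 of 37 single omissions, and the other without Mouse152. Of the 3 genes for the c ring, Atp5g2 fell by 0.12 (adjusted p = 0.00197), Atp5g1 rose by 0.12 at 1 probe set (0.0364) and stood at -0.09 (0.0873) at the other, and Atp5g3 stood at -0.02 (0.604). The small subunits Atp5md, Atp5e and Atp5mpl rose by 0.21, 0.15 and 0.07.

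A list of core subunits held 12 of the 15 falls and 1 of the 26 rises in fat. Core is here the name of a chosen list and not a structural definition. Of its 26 probe sets of 19 genes (Ndufs1, Ndufv1, Ndufv2, complex II, the large subunits of complex III with Cyc1, Cox4i1, Cox5b and the alpha, beta, gamma and c-ring genes of complex V) 1 rose and 12 fell, with a median of -0.08. That list leaves out the core complex I subunits Ndufs3, Ndufs7 and Ndufs8, and with them 2 of 30 probe sets rose and 12 fell, with a median of -0.07. Of 12 probe sets of 12 isoform genes 4 rose and none fell. Without the 14 arrays the core counts were 0 and 5 with either list, and the isoform counts 1 and 0, where 23.9% of the table was called. Whether core and accessory members differ was not tested.

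The NRF1 motif stood in the promoter windows of 5 of 18 matched genes that rose in fat (Ndufa11, Ndufa8, Ndufaf4, Ndufaf5 and Ndufs6), of 4 of 7 that fell (Atp5c1, Atp5g2, Ndufa6 and Sdha) and of 7 of 38 without a call. It was thus found in promoters of members on both sides of the diet difference.

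The diet calls of both genotypes pointed the same way. In Ala/Ala fat 13 members rose and 12 fell, against 12.3% and 14.6% of the table (26.9% in all), and in Pro/Pro fat 18 rose and 8 fell, against 9.36% and 13.1% (22.5% in all). At the false discovery rate of 0.20 that the series text uses, 44 members were called in Ala/Ala, 38 in Pro/Pro and 58 over both, against 45.3%, 36.3% and 55.9% of the table. The genotypes share no arrays in these comparisons, but both come from the same limma fit and its shared estimate of the spread, so their calls are not fully independent. The 11 members that rose in both were 84.6% of the Ala/Ala rises and 61.1% of the Pro/Pro rises: Ndufa10, Ndufa11, Ndufb2, Ndufb3, Ndufb6, Ndufaf2, Ndufaf4, Ndufaf5, Ndufaf6, Cox4i2 and Atp5md. The 8 that fell in both were 66.7% of the Ala/Ala falls and all 8 of the Pro/Pro falls: the 3 Sdha and 2 Atp5c1 probe sets, Ndufab1, Atp5a1 and Atp5g2. No member was called in opposite directions. The share of all probe sets called in both genotypes was not analysed here. Without the 14 arrays 4 members rose and 2 fell in Ala/Ala fat. All 25 Ala/Ala calls kept their direction, but Ndufa10, Ndufa11, Ndufaf4 and Cox4i2 were among those that no longer passed there. In limma's test of the diet by genotype interaction 0 members and 0.0% of the table passed, and 2 members had an unadjusted p under 0.05.

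As mean over the genes of each class, the complexes moved little. The assembly factors averaged -0.05 ± 0.08 in Ala/Ala HFD and -0.20 ± 0.10 in Ala/Ala chow fat (SD), and -0.01 ± 0.12 in Pro/Pro HFD and -0.19 ± 0.08 in Pro/Pro chow fat. Complex II averaged -0.02 ± 0.11 in Ala/Ala HFD and 0.11 ± 0.08 in Ala/Ala chow fat, and -0.01 ± 0.11 in Pro/Pro HFD and 0.10 ± 0.06 in Pro/Pro chow fat. For complexes I, III, IV and V the HFD minus chow difference lay between -0.03 and 0.06 in both genotypes. In all 6 classes the ranges of the diet groups overlapped.

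**Figure D3:**
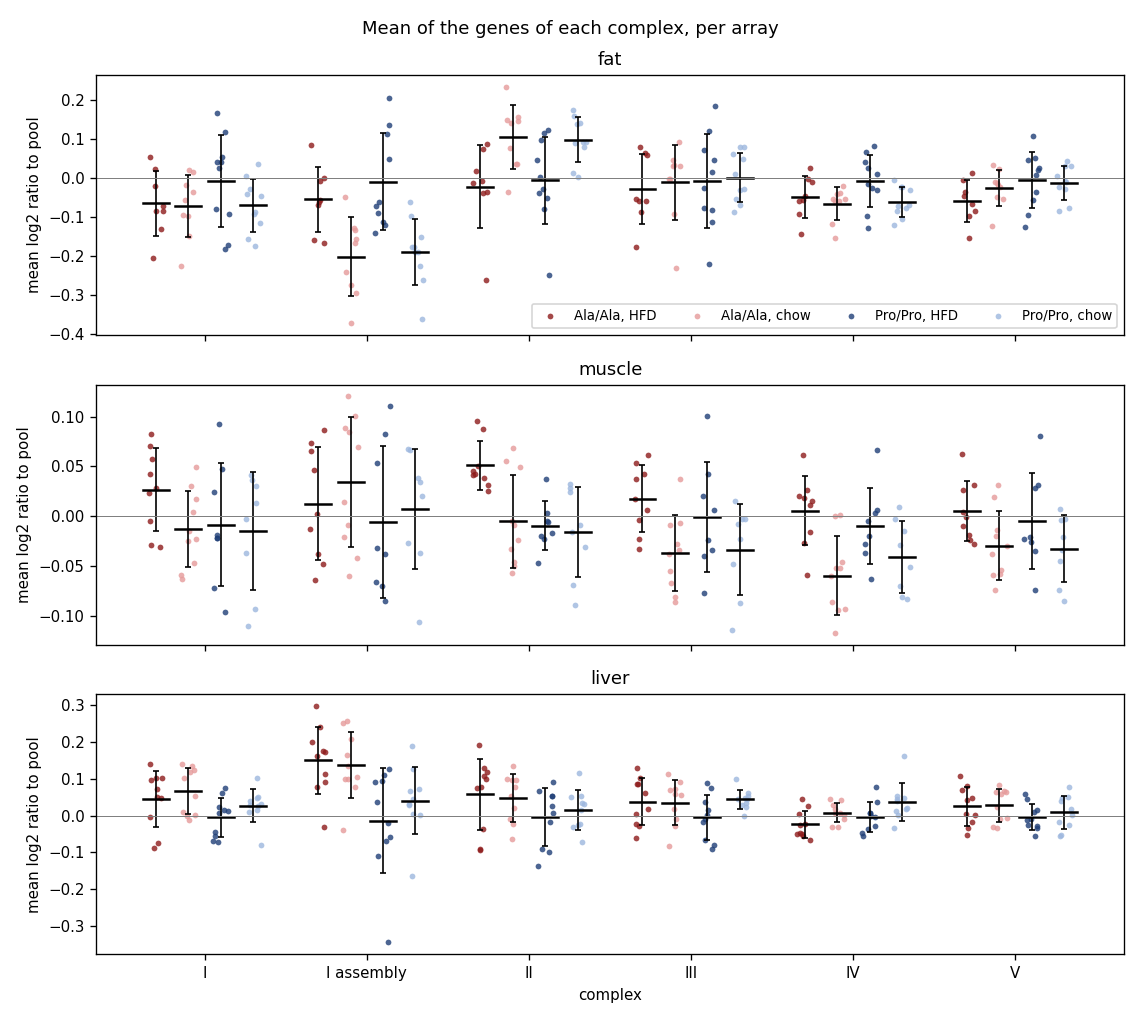
Mean log2 ratio to the pool over the genes of each complex (y axis) for every array (points), by complex and group, in fat, muscle and liver, with the group mean and standard deviation. In fat the assembly factors sit higher and complex II lower on HFD, with overlapping ranges in every class.

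Without the 14 fat arrays, 4 Ala/Ala HFD, 6 Pro/Pro HFD, 2 Ala/Ala chow and 2 Pro/Pro chow mice were left out. Then 16 members rose and 6 fell over both genotypes, 22 in all, against 23.9% of the table. All 22 were among the 41 called with all arrays, and all 41 kept their direction. The arrays kept are part of the same set, so a kept direction is no independent check. Only 4 HFD arrays remained in each genotype, so fewer calls could also follow from the smaller groups. Complex I kept 8 rises and 1 fall, the assembly factors all 5 rises, complex II 2 falls (Sdha), complex IV the rise of Cox4i2, complex V 2 rises and 3 falls, and complex III had no call. Ndufa10 then differed by 0.53, Ndufaf6 by 0.38, Atp5c1 by -0.50 and Ndufab1 by -0.60, each still past the threshold. The other 19 no longer passed, among them Sdhb at -0.16, Uqcrc2 at -0.12, Cyc1 at -0.10 and both Atp5b probe sets. In Ala/Ala mice 4 rose and 2 fell (10.8% of the table called), and in Pro/Pro mice 11 rose and 4 fell (13.1%). When 2 further arrays (Mouse128 and Mouse95) were left out, whose epididymis and testis mean stood more than 0.5 above the highest chow array, 13 members rose and 8 fell over both genotypes, against 23.6% of the table. Ndufa10 then stood at 0.50, Ndufaf6 at 0.37, Ndufab1 at -0.67 and Atp5c1 at -0.50, each past the threshold.

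Cell type markers also differed between the diet groups in fat, where 18.4% of the table rose and 20.3% fell over both genotypes. The mean of 5 adipocyte markers ran from -0.078 to 0.014 in Ala/Ala HFD, against -0.442 to -0.082 in Ala/Ala chow fat, and from -0.05 to 0.03 in Pro/Pro HFD, against -0.52 to -0.16 in Pro/Pro chow fat. Every HFD mouse lay above every chow mouse of its genotype in that mean, although over both genotypes 1 of the 5 probe sets rose and 2 fell. The hepatocyte mean was -1.08 in Ala/Ala HFD and -2.23 in Ala/Ala chow fat, and -1.50 in Pro/Pro HFD and -2.44 in Pro/Pro chow fat, with no probe set of 7 called. The mean of the macrophage markers was 0.14 in Ala/Ala HFD and -0.39 in Ala/Ala chow fat (ranges -0.63 to 1.23 and -0.86 to 0.59), and -0.07 in Pro/Pro HFD and -0.41 in Pro/Pro chow fat (-0.53 to 0.41 and -0.75 to -0.03). Over both genotypes 3 of its 7 probe sets rose and 2 fell. That of the brown and beige adipocyte markers was 0.17 in Ala/Ala HFD and -0.62 in Ala/Ala chow fat, and -0.14 in Pro/Pro HFD and -0.65 in Pro/Pro chow fat, with 5 of 10 probe sets rising and 2 falling. The mesothelial markers, of which 6 of 8 fell, averaged -0.13 in Ala/Ala HFD and 0.30 in Ala/Ala chow fat, and -0.05 in Pro/Pro HFD and 0.49 in Pro/Pro chow fat. The part of these cells in the results of the members was not tested.

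Other mitochondrial genes gave the wider setting in fat. Their counts stand beside 18.4% of the table that rose and 20.3% that fell over both genotypes. Of 99 probe sets of the mitochondrial ribosome, which makes the mitochondrially encoded subunits, 54 rose and 7 fell, with a median of 0.13, and 41 rose and 4 fell without the 14 arrays. Of 33 probe sets of assembly factors outside the rule 18 rose and 2 fell (median 0.11), among them Cox19 at 0.60 and Cox16 at 0.38, which help build complex IV, while Atpaf1, a chaperone of the ATP synthase head, fell by 0.35. Of 34 probe sets of regulators of mitochondrial genes 3 rose and 13 fell, and without the 14 arrays 1 rose and 5 fell, where 23.9% of the table was called. Ppargc1b, a coactivator of respiratory genes, fell by 0.72 ± 0.10, the deacetylase Sirt1 by 0.61 ± 0.08 and Yy1 by 0.28 ± 0.05. In the citric acid cycle, which feeds complexes I and II, 3 probe sets rose and 4 fell of 16. Suclg2 and Dlst fell by 0.44 and 0.41 and Idh3a rose by 0.54. Of 17 probe sets of carriers and porins 5 rose, among them 2 of the 3 probe sets of the uncoupling protein relative Ucp2, by 0.34 and 0.40. Only 1 fell, by 0.17, which was 1 of the 2 probe sets of the ADP/ATP carrier Slc25a4. Atpaf1, Ppargc1b, Yy1, Dlst and Idh3a also have several probe sets, and each value given is that of 1 of them.

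In muscle, HFD was followed by small rises of members of complexes I, III, IV and V. Over both genotypes 9 of 98 probe sets rose, against 2.05% of the table, and 1 fell, against 3.31% (5.37% in all). The rises were of 0.07 to 0.11 on the log2 scale, at most a 1.08-fold level, and 73 of the 98 members stood above 0, against 16904 of the table's 32640. Complex I had 4 rises (Ndufa10, Ndufb5, Ndufv1 and Ndufv3), complex III 3 (Uqcrq, Uqcrc1 and Cyc1), complex IV 1 (Cox8c) and complex V 1 (Atp5d). Complex II had none, and the assembly factors had 1 fall, of Ndufaf6.

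Ndufa10 had the smallest adjusted p of them, at the probe set that did not pass in fat. It ran from -0.08 through 0.00 to 0.12 in Ala/Ala HFD muscle, against -0.16 through -0.08 to -0.03 in Ala/Ala chow muscle. On HFD it ran in Pro/Pro muscle from -0.05 through -0.01 to 0.03, against -0.15 through -0.11 to -0.09 in Pro/Pro chow muscle, where every HFD mouse lay above every chow mouse, as 0.135% of the table did. The difference was 0.10 ± 0.02 (adjusted p = 0.00218). Ndufv1, the NADH-binding subunit, rose by 0.09 ± 0.02 (adjusted p = 0.0117), Ndufb5 by 0.10 ± 0.03 at 1 of 2 probe sets (0.0182) and Atp5d, the delta chain, by 0.08 ± 0.02 (0.0275). These 4 calls held in each of the 35 single omissions.

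The other calls in muscle, from the same arrays, each ended when certain single mice were left out. Uqcrq, a small subunit of complex III, rose by 0.11 ± 0.03 (adjusted p = 0.0314), and 3 omissions (of Mouse123, Mouse125 and Mouse149) ended the call. Cox8c rose by 0.11 ± 0.03 (0.0297), a call lost without Mouse85, Mouse94 or Mouse106. Uqcrc1 rose by 0.07 ± 0.02 (0.0276) and lost the call without Mouse147. Cyc1, at 0.07 ± 0.02 (0.0426), lost it in 22 of 35 omissions, and Ndufv3, at 0.08 ± 0.02 (0.0349), in 9. Sdhb stood at 0.07 (adjusted p = 0.052) and the larger Atp5c1 difference at 0.17 (0.115), both without a call. At the false discovery rate of 0.20, 24 members were called over both genotypes, 12 in Ala/Ala and 2 in Pro/Pro muscle, against 13.2%, 5.34% and 4.06% of the table.

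Within a genotype no member passed in muscle: in Ala/Ala mice 1.95% of the table was called and in Pro/Pro mice 0.956%. At an unadjusted p under 0.05 there were 22 members (22.4%) in Ala/Ala, against 12.2% of the table, and 9 (9.18%) in Pro/Pro, against 12.0%. Of the members 78.6% stood above 0 in Ala/Ala and 62.2% in Pro/Pro, against 49.9% and 51.3% of the table. Adipocyte markers differed between the muscle groups, with a mean over 5 genes of 0.86 ± 0.57 in Ala/Ala HFD (0.07 to 1.71) and 0.14 ± 0.40 in Ala/Ala chow muscle, and 0.01 ± 0.33 in Pro/Pro HFD and -0.03 ± 0.65 in Pro/Pro chow muscle. With that mean as a covariate 8 members rose and 1 fell, and Uqcrq, at 0.11, did not pass. The share of the table called with the covariate is not given here. Among other mitochondrial genes in muscle, those of the electron transfer flavoprotein, which passes electrons from fatty acid oxidation into the chain, rose: Etfdh by 0.36 ± 0.03 (adjusted p = 4.89e-11), Etfa by 0.18 ± 0.03 (2.33e-05) and Etfb by 0.15 ± 0.03 (0.000153). Of the regulators 3 of 34 probe sets rose, Esrra by 0.13, Sirt3 by 0.14 at only 1 of its probe sets and Polrmt by 0.09. Of the 99 probe sets of the mitochondrial ribosome 1 rose and 3 fell. Over both genotypes 2.05% of the table rose in muscle and 3.31% fell.

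In liver no member was called for diet, and neither was any of the 32640 probe sets (0.0% called by limma in Ala/Ala, in Pro/Pro or over both). Most members still stood slightly below 0. Over both genotypes 20 of the 98 (20.4%) stood above 0, against 48.7% of the table, with medians of -0.0215 and -0.0019. The share above 0 was 31.6% in Ala/Ala and 19.4% in Pro/Pro, against 47.6% and 50.3% of the table. Whether these shares differ was not tested. At an unadjusted p under 0.05 there were 5 members (5.1%) over both genotypes, against 4.82% of the table. The largest difference was that of Cox6b2, a testis isoform of complex IV, at -0.28 ± 0.10 (adjusted p = 0.988). For 97 of the 98 members the 95% interval of the difference lay within 0.25 of 0 on the log2 scale, and the widest, that of Cox6b2, reached 0.48.

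The diet effects of fat and muscle differed for 33 members by the direct test, 14 with a higher and 19 with a lower effect in fat, against 11.5% and 13.6% of the table (25.1% in all). Fat and liver differed for 35, 25 higher and 10 lower, against 12.5% and 14.0% (26.6% in all). Muscle and liver differed for none (0.824% of the table), and for 6 members when only mice measured in both were used. The share of the table called with those mice is not given here. Fat minus muscle was largest for Ndufaf6 (0.48 ± 0.07), Ndufa10 (0.40 ± 0.10), Cox4i2 (0.36 ± 0.08) and Ndufa4l2 (0.32 ± 0.09) among the higher, and for Ndufab1 (-0.87 ± 0.12), Atp5c1 (-0.80 ± 0.10), Sdha (-0.28 ± 0.08) and Sdhb (-0.25 ± 0.05) among the lower. Fat minus liver gave 0.44 ± 0.10 for Ndufa10, 0.38 ± 0.08 for Cox4i2 and 0.32 ± 0.05 for Ndufa11, and -0.70 ± 0.12 for Ndufab1 and -0.67 ± 0.09 for Atp5c1. Both sets of differences use the same fat arrays, and they were not repeated without the 14 arrays that held transcripts of other organs.

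Ndufaf6 and Cyc1 were called in both tissues in opposite directions. Ndufaf6, higher on HFD in fat, ran in muscle from -0.13 through 0.01 to 0.13 in Ala/Ala HFD mice, against -0.01 through 0.06 to 0.30 in Ala/Ala chow mice. In Pro/Pro HFD muscle it ran from -0.09 through 0.01 to 0.14, against -0.02 through 0.15 to 0.21 in Pro/Pro chow muscle. The medians were lower on HFD in both genotypes with overlapping ranges (-0.12 ± 0.03, adjusted p = 0.0289, lost without Mouse85, Mouse95, Mouse147 or Mouse152), and fat and muscle differed with an adjusted p of 1.51e-07. Cyc1 stood at -0.11 in fat and 0.07 in muscle, a difference of -0.18 ± 0.04 (adjusted p = 0.000261). Cox8c, the remaining member called in both, rose in each, and the difference of -0.02 ± 0.05 did not pass (adjusted p = 0.868).

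**Figure D4:**
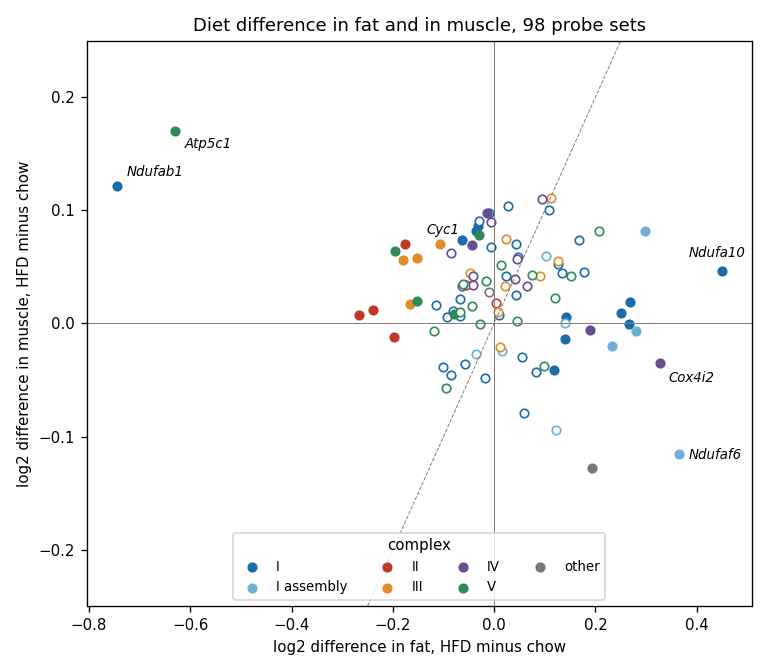
Log2 difference, HFD minus chow over both genotypes, of the 98 probe sets in fat (x axis) and muscle (y axis), coloured by complex and filled where the tissues differed (the dashed line marks equal values). Ndufab1 and Atp5c1 lie far to the left with muscle values of 0.12 and 0.17, and Ndufaf6 lies to the right with a negative muscle value.

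The genotype gave no call among the members in any tissue. On HFD, Ala/Ala fat differed from Pro/Pro fat at 23 probe sets of the table (0.0705%) and at 0 members by limma, with 7 members (7.14%) at an unadjusted p under 0.05, against 9.02% of the table. All 7 were lower in Ala/Ala: Atp5g1 at -0.17, Ndufs7 at -0.16, Ndufb11, Ndufa7, Ndufa4 and Ndufa13 at -0.12 and Atp5a1 at -0.09, with adjusted p of 0.432 or more. Of the 98 members 18 stood above 0 in that comparison against 18204 of 32640 over the table (medians -0.04 and 0.01). On chow 1 member had an unadjusted p under 0.05 (0.0153% of the table called), and over both diets 0.0429% of the table and no member passed. For 86 members on HFD and 97 over both diets the 95% interval lay within 0.25 of 0 on the log2 scale, and the widest on HFD reached 0.44 (Cox6b2).

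In muscle, Ala/Ala differed from Pro/Pro at 0 members, with 3 at an unadjusted p under 0.05 over both diets, and at 0.0337% of the table (0.0153% on HFD and 0.0184% on chow). For all 98 the interval over both diets lay within 0.25. The 4 members on chromosome 6, which also carries Pparg (Ndufa4, Ndufa5, Ndufa9 and Ndufb2), had no call in any tissue.

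In liver the members came closer to the threshold, and on the side higher in Ala/Ala. Over both diets 22 members (22.4%) had an unadjusted p under 0.05, against 14.8% of the table, 67 of 98 stood above 0, against 14991 of 32640 over the table, and none passed (0.0153% of the table called). All 9 assembly factor probe sets stood above 0, with a median of 0.14. Ndufaf1, an assembly factor of the membrane arm, ran from -0.10 through 0.18 to 0.31 in Ala/Ala HFD liver and from -0.23 through 0.02 to 0.15 in Pro/Pro HFD liver. On chow it ran from 0.01 through 0.17 to 0.27 in Ala/Ala liver and from -0.14 through 0.04 to 0.13 in Pro/Pro liver. The Ala/Ala medians were higher on both diets with overlapping ranges, and the difference was 0.14 ± 0.04 (adjusted p = 0.0821). Ndufaf7, a methyltransferase of complex I assembly, stood at 0.19 ± 0.06 (0.116), Atp5o, the stalk subunit that joins both parts of the ATP synthase, at 0.15 ± 0.05 (0.137) and Sdhc at 0.09 ± 0.03 (0.158). At the false discovery rate of 0.20, 10 members were called, all higher in Ala/Ala, against 1.95% of the table higher and 3.24% lower. The mitochondrial ribosome stood likewise above 0 in 91 of 99 probe sets, 33 of the 99 at an unadjusted p under 0.05, beside the 14.8% of the table, and none called.

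**Figure D5:**
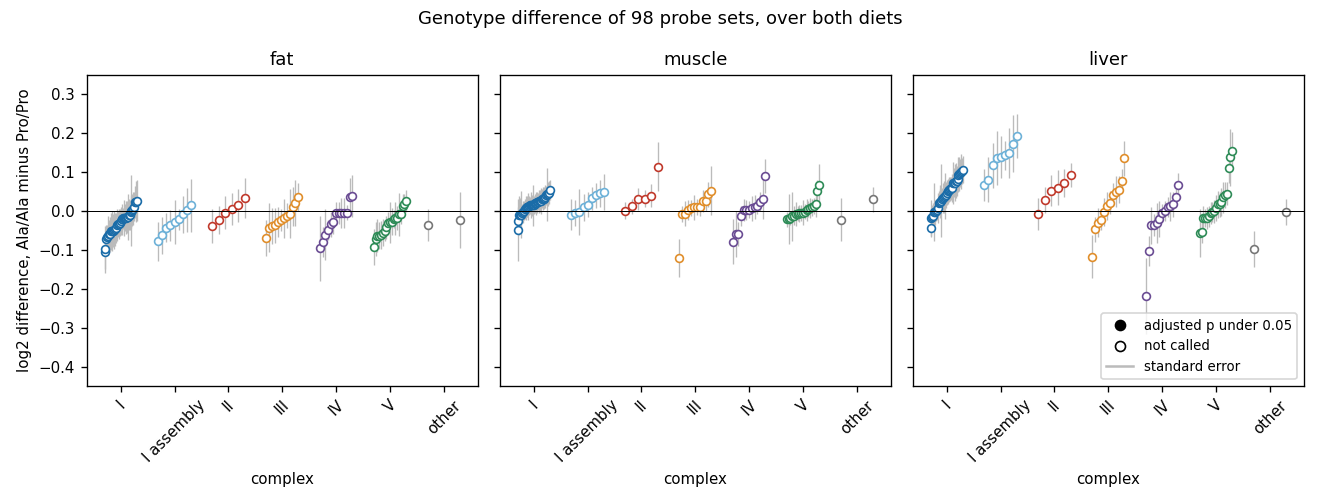
Log2 difference, Ala/Ala minus Pro/Pro over both diets, of each of the 98 probe sets (points) by complex (x axis) in fat, muscle and liver, with bars of 1 standard error. No point passes the threshold, and in liver all 9 assembly factor probe sets lie above 0.

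The genotype effect differed between fat and liver for 2 members, against 0.61% of the table. Ndufs7, a core iron-sulfur subunit of complex I, stood at -0.11 in fat and 0.10 in liver, a difference of -0.21 ± 0.05 (adjusted p = 0.0171), and Ndufaf1 at -0.06 and 0.14, a difference of -0.21 ± 0.05 (0.0445). Neither effect was called in either tissue alone, and none of these differences passed when only mice measured in both tissues were used. Fat minus muscle and muscle minus liver gave no member (0.0184% and 0.0214% of the table).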

How the data were processed

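Per the series' design text and labels, RNA of each tissue (Trizol, RNeasy, 1 round of amplification) was hybridised to Affymetrix arrays and processed in Rosetta Resolver. The text names a commercial mouse array, whereas the probe identifiers are those of a custom design, and the labels list a dye for each of 2 channels. The authors deposited log10 ratios of each mouse to a virtual pool of the Pro/Pro HFD arrays of its tissue. The muscle table holds 8 of the 10 arrays the pool is labelled with. In fat and liver the ratios of the pooled mice averaged 1 at nearly all probe sets, which fixes their direction; in muscle their sum reached 9.28 and never passed 10, as it would at 235 probe sets if turned round. Ratios stop at -2 on the log10 scale, 100 times below the pool; 64 values lie there, none of a member.

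The deposited log10 values were converted to log2 and not normalised further (array medians -0.07 to 0.03). limma 3.58.1 (R 4.3.3) fitted 1 mean per genotype and diet in each tissue, and 12 group means for differences between tissues, with Benjamini-Hochberg adjustment over 32640 probe sets and a threshold of 0.05. Symbols were updated through RefSeq GRCm38.p6: 25508 probe sets had 1 symbol and 7132 none. The scripts were tested on simulated data. Mice are the replicates; which of them shared a litter or an array batch is not given in the sources used here. The number of arrays limits the precision. The members and gene lists were chosen with earlier results of these data known. Named by rule were the 6 largest rises and falls of each comparison, core and isoform subunits, and members with opposite calls; other called members were named after their values were seen. Promoters were the 250 bases before to 50 after RefSeq starts. Alternatives covered scaling, filters, probe set choice, covariates, single mice, the methods' t-test and the mouse as a block.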

Additional observations from a re-analysis of the deposited data

Results flagged for a closer look

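The diet effect of 33 member probe sets differed between fat and muscle and of 35 between fat and liver, and the genotype effect of 2 between fat and liver, by limma's test of the difference. Ndufaf6 stood out with a fat minus muscle difference of 0.48 and Cyc1 with -0.18, each with a called effect of opposite sign in the 2 tissues.

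Of 72 class means tested by group, 5 had a mouse far from the others, where chance gives about 1 in 20. In Ala/Ala HFD fat the complex II mean of Mouse152 was -0.26, with the nearest mouse at -0.04. In Pro/Pro chow liver Mouse72 had a complex I mean of -0.080, with the nearest at 0.01, and an assembly factor mean of -0.16, with the nearest at 0.00. In Pro/Pro HFD liver the assembly factor mean of Mouse123 was -0.35, with the nearest at -0.11. In Pro/Pro chow liver the complex IV mean of Mouse91 was 0.16, with the nearest at 0.05. Leaving out any single mouse left the liver with no member called.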

How the results depend on the processing

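Counts of members called by diet in fat (25 in Ala/Ala, 26 in Pro/Pro, 41 over both) became 9, 9 and 11 among probe sets above the median variance, which keep 15 of 98 members, and 6, 15 and 22 without the 14 arrays. In the latter case 10.8%, 13.1% and 23.9% of the table were called. Without 2 further arrays with epididymis transcripts, an alternative chosen after seeing the data, the counts were 6, 10 and 21. The table then had 10.6%, 13.4% and 23.6% called. At the false discovery rate of 0.20 Ala/Ala fat had 44, and the methods' t-test at that rate gave 44, 40 and 62. In muscle (0, 0 and 10) the rate of 0.20 gave 12, 2 and 24, the methods' t-test 21, 6 and 31 at that rate and 3, 1 and 21 at 0.05, the first residual component as covariate 3 in Ala/Ala, and the variance filter 0 over both. The liver genotype count of 0 became 10 at the rate of 0.20, 11 with the methods' t-test at that rate and 1 with the residual component. With only mice measured in both tissues, the genotype difference between fat and liver had 0 members and the diet difference between muscle and liver 6. Leaving out 1 mouse gave 19 to 27, 25 to 28 and 35 to 43 members in fat and 0 to 1 (1 without Mouse128), 0 and 7 to 11 in muscle; the counts for liver and genotype stayed 0. The shares of the table called under the t-test, the covariates, the variance filter and the mice measured in both tissues are not given here. The counts under those settings therefore do not show whether the members moved apart from the table. No result reversed, and the cause of these shifts was not tested.

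Mouse numbers pair the tissues. With the mouse as a replicate block the tissue differences had 33, 35 and 0 members for diet and 0, 2 and 0 for genotype, the same counts as without it. Same-mouse deviations had median correlations of 0.01, -0.02 and -0.01 between tissues. Ratios to a pool hold no signal over background, so dim members cannot be told from bright ones.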
